A study of Gallus gallus with 205 samples.

Results

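Transcripts of 7 genes of tight junctions and epithelial adhesion were followed in 205 single cells of gastrulating chicken embryos. The genes are the claudins CLDN1, CLDN3 and CLDN5, the membrane protein OCLN, the scaffold TJP1, the adhesion molecule EPCAM and the polarity protein PARD3. They were chosen by name, with earlier results of these data known, and all 7 are among the 20581 genes complete in both deposited tables. The embryos were White Leghorn chickens at Hamburger-Hamilton stage 4, reached after 20 to 27 h of incubation (22 to 24 h in the labels of 1 cell), with no treatment and no genetic change named. The primitive streak gave 4 title series, cPS (27 cells), cPS1 (37), cPS2 (59) and cPS3 (52). The 30 cells of the series cSR came from the region that surrounds the streak. Of these cSR cells, 6 also carry the word epiblast in their labels. The labels name no embryo and do not say what the series numbers mean, so each tissue counts as 1 sample, no difference has a replicate check and no p-value is given.

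Tight junctions seal epithelial sheets near their apical edge. Claudins form the sealing strands, OCLN lies beside them in the membrane, and TJP1 (ZO-1) ties both to the actin cortex. PARD3 is part of the complex that sets up the apical domain. EPCAM is a cell surface adhesion protein of epithelia that in mammals binds and stabilises some claudins. At the streak, epiblast cells leave the epithelial sheet by an epithelial-mesenchymal transition and become mesoderm and endoderm. SNAI2 is a transcriptional repressor that acts in that transition in the chick. T (Brachyury) is the T-box factor that marks the streak and early mesoderm.

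Each library is a single cell, with between 201170 and 4552697 expected counts (median 2459318). A level is given as CPM, a gene's share of the cell's counts multiplied by 1000000, which is not scaled for gene length, so levels are compared between cells and never between genes. A gene was taken as detected in a cell at 10 CPM or more, and each cell had a median of 4784 such genes. Pooled CPM is a gene's summed count over the summed totals of a series. The 95% intervals, exact Poisson ones for pooled CPM and exact Clopper-Pearson ones for shares, cover counting error only. Reads counted without molecular identifiers are not independent molecules. T itself was detected in 98.9% of streak cells and in 29 of 30 cSR cells, so this marker does not separate the tissues by presence alone. The library identifiers in the labels form 4 consecutive blocks. Blocks 1 and 2 hold all cPS and cSR cells, and blocks 3 and 4 hold the other streak series, for which block and tissue cannot be told apart.

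The 7 genes split into 4 that nearly every cell held and 3 that hardly any cell held. CLDN1, TJP1, EPCAM and PARD3 were detected in most cells, and exactly 4 of the 7 genes reached 10 CPM in 85.1% of streak cells and in 23 of 30 cSR cells (76.7%). No cell held fewer than 2 of them or more than 5. The remaining 3 genes were close to absent at this depth.

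CLDN3, a claudin of tight epithelia, had 104.5 counts over all streak cells, which is 0.239 CPM (0.194 to 0.288), against 8.04 counts in cSR, which is 0.115 CPM (0.049 to 0.225). It had a count above 0 in 18 streak cells and 3 cSR cells and reached 10 CPM in a single cPS3 cell, at 14.6 CPM. Its share at 10 CPM was thus 0.571% of streak cells (0.014 to 3.14) and 0 of 30 cSR cells, where a count of 0, taken as 3 cells of the total, allows up to 10%. CLDN5, the claudin of endothelial cells, had no count in any streak cell, for which the same rule of 3 gives 1.71%. All of its 29 counts lay in a single cSR cell, at 10.2 CPM. That cell was also the second highest of all 205 for 3 genes of vessel and blood progenitors, the endothelial cadherin CDH5 (201 CPM) and the transcription factors LMO2 (130 CPM) and TAL1 (46.6 CPM). Of the other lateral mesoderm and vessel markers, HAND1 ranked 5 of 205 there, KDR 10, ALDH1A2 21, FOXF1 31 and GATA4 84. The blood markers HBZ and HBE were at 0 and 0.353 CPM. The same cell had 18.4 CPM of CLDN1. OCLN had 7 counts in all, in a single cPS3 cell at 5.30 CPM, below the detection limit, and 0 of 205 cells gives 1.46% by that rule (1.78% as the upper bound of the exact interval). The cell with the OCLN counts had 5940 CPM of CLDN1, the third highest level of that gene.

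In the wider claudin family CLDN1 alone was near-universal, and a few members were intermediate. Besides CLDND1, which encodes a protein with a claudin domain and is not itself a claudin, 18 claudins had a place in the tables. At 10 CPM, 5 of these 19 genes were detected in no cell and 11 in fewer than 25% of the cells of either tissue. The 3 more widely detected ones were CLDN1, CLDN12 and CLDND1. Of all 20581 genes, 6673 besides SNAI2 were detected in at least 25% of streak cells and 6743 in at least 25% of cSR cells. CLDN12 was detected in 60.6% of streak cells and 76.7% of cSR cells, and CLDND1 in 63.4% of streak cells and 60% of cSR cells. CLDN11, the claudin of myelin and of the testis barrier in mammals, came next with 28 streak cells and 5 cSR cells.

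Several claudins were carried by very few cells, singled out here after their values were seen. CLDN10 reached 132.7 CPM in 1 cSR cell, which held 45.5% of all its counts, and CLDN20 reached 172 CPM in 1 cPS2 cell with 48.6%. The highest cell for CLDN11 was a cPS cell at 73.97 CPM, which was also among the 5 highest of all cells for the endoderm genes FOXA2 (23.4 CPM), HHEX (178 CPM), CER1 (880 CPM) and APOA1 (851 CPM). Of the other endoderm markers RBP4 (180 CPM) ranked 9 of 205 there and GATA6 (151.1 CPM) 58, and SOX17, FOXA1, TTR and HNF4A were at 0. A level of 0 was common for these 4, ranking 1 of 205 for FOXA1, 3 for TTR, 12 for HNF4A and 20 for SOX17. CLDN18, a claudin of stomach and lung in mammals, peaked at 29.4 CPM in a cPS2 cell. Some markers of several classes were high in that cell, and others of the same classes were not. It ranked 1 of 205 for the endoderm factor HNF4A (26.8 CPM) and 2 for the keratin KRT7 (1776 CPM). For the epiblast factor SOX2 (7.38 CPM) it ranked 5. It ranked 7 for the endoderm markers APOA1 (302 CPM), RBP4 (227 CPM) and SOX17 (1.48 CPM), and 12 for FOXA2 (18.6 CPM). The epiblast markers OTX2 (86.5 CPM) and SOX3 (61.5 CPM) ranked 6 and 13. The endoderm markers HHEX, FOXA1 and TTR and the epiblast markers NANOG and CDH1 were at 0 there, and FOXA1 was at 0 in every cell. KRT7 belongs to the non-neural ectoderm markers. Of these, KRT19 (666 CPM) ranked 8, and GRHL3, UPK1B, VGLL1, TFAP2A, DLX5 and DLX6 were at 0. For SALL4, POUV, CER1 and GATA6 the cell ranked further down. CLDN16, a claudin of the kidney tubule in mammals, had 220 CPM in 1 cPS2 cell, 67.2% of its counts. The same cell had the highest CLDN1 of all, at 8603 CPM. In a second cPS2 cell CLDN16 stood at 166 CPM beside 4053 CPM of CLDN1. In the other 7 cells with CLDN16 it was at 0.311 to 5.67 CPM, and CLDN1 at 7.13 to 4578 CPM. In the RefSeq gene table (assembly GRCg7b, not the build of the counts) CLDN16 and CLDN1 are next to each other, and CLDN3, CLDN9 and CLDN4 follow each other as well. The counts are expected counts of RSEM, not all of them whole, and the part of reads shared between such neighbours was not tested.

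**Figure D1:**
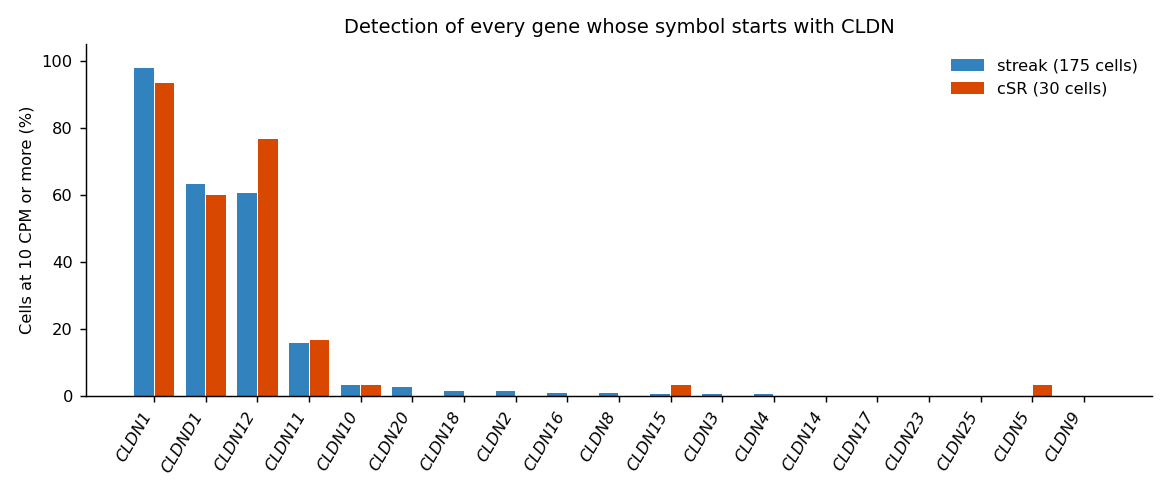
Share of cells (%, vertical axis) at 10 CPM or more for each of the 19 genes whose symbol starts with CLDN, in the streak cells (left bars) and the 30 cSR cells (right bars). CLDN1, CLDND1 and CLDN12 stand at 60% or more in both tissues, and CLDN3 and CLDN5 lie at or near 0.

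CLDN1, a strand-forming claudin, was present in nearly every cell but at very different levels. Per cell it had a lowest, median and highest value of 13.6, 2096 and 5699 CPM in cPS, of 6.11, 1050 and 4979 CPM in cPS1, of 4.45, 2061 and 8603 CPM in cPS2, and of 8.03, 2295 and 5940 CPM in cPS3. In cSR these values were 5.62, 294 and 4472 CPM. The full ranges of the streak series and cSR overlap widely, though each streak series had a higher maximum. The median and the lower quartile lay lower in cSR, the latter at 78.9 CPM against 619 CPM over the streak. The upper quartile in cSR (2856 CPM) was above that of cPS1 (2322 CPM). In cSR, 16 of 30 cells (53.3%) were under 300 CPM, 13 were at 1000 CPM or more and a single cell lay between. In the streak, 27 cells (15.4%) were under 300 CPM and 35 lay between 300 and 1000 CPM, and 16 cells of cPS, 20 of cPS1, 37 of cPS2 and 40 of cPS3 were at 1000 CPM or more. These 2 limits were chosen after the values were seen. The upper quartile was 4.99-fold the lower quartile over the streak cells and 36.2-fold in cSR.

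Pooled over cells, CLDN1 stood at 2110 CPM (2099 to 2120) in cPS, 1485 CPM (1477 to 1493) in cPS1, 2031 CPM (2024 to 2038) in cPS2 and 2173 CPM (2164 to 2181) in cPS3, against 1208 CPM (1200 to 1217) in cSR. The order of the series from high to low was cPS3, cPS, cPS2, cPS1 and cSR, by pooled level and by median. The interquartile ranges of neighbours in that order overlapped throughout, for example 492 to 2322 CPM in cPS1 and 78.9 to 2856 CPM in cSR. CLDN1 was detected in 100% of cPS (87.2 to 100), 97.3% of cPS1 (85.8 to 99.9), 96.6% of cPS2 (88.3 to 99.6), 98.1% of cPS3 (89.7 to 99.95) and 93.3% of cSR cells (77.9 to 99.2). With every cell thinned to 1000000 counts, the share in cSR was 92.9%. Detection therefore hardly differed while level did.

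The 6 cSR cells labelled epiblast were high in CLDN1, with a lowest, median and highest value of 293, 2371 and 3573 CPM and 5 cells at 1000 CPM or more. The other 24 cSR cells had a median of 179 CPM, and 15 of them were under 300 CPM. High CLDN1 was not limited to the labelled cells. Of the 24 others, 8 were at 1000 CPM or more, and their highest value, 4472 CPM, was above that of the labelled cells. Pooled CLDN1 was 2275 CPM in the labelled cells and 917 CPM in the others, and pooled EPCAM 837 CPM and 443 CPM. TJP1 and PARD3 went the other way. Pooled TJP1 was 161.3 CPM in the labelled cells and 222.7 CPM in the others, and pooled PARD3 34.17 CPM and 158.01 CPM.

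EPCAM was detected in every one of the 205 cells. Its lowest, median and highest values per cell were 33.2, 544 and 1931 CPM in cPS, 116.3, 720 and 1889 CPM in cPS1, 62.7, 675 and 2695 CPM in cPS2, and 82.6, 1022 and 2880 CPM in cPS3. In cSR they were 27.3, 410 and 1900 CPM. All 5 ranges overlap, with cPS3 and cSR furthest apart at the median. Pooled EPCAM was 730 CPM (723 to 736) in cPS, 800 CPM (794 to 806) in cPS1, 881 CPM (877 to 886) in cPS2 and 1008 CPM (1002 to 1013) in cPS3, against 528 CPM (522 to 533) in cSR. By median, cPS1 and cPS2 changed places, and the interquartile ranges of all neighbours overlapped. EPCAM was more even between cells than CLDN1, with an upper quartile 2.54-fold the lower in the streak and 6.59-fold in cSR.

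TJP1, the ZO-1 scaffold, and PARD3 were lowest in cPS by pooled level, and neither set the streak series as a whole apart from cSR. TJP1 had medians of 193, 246, 180 and 213 CPM in cPS, cPS1, cPS2 and cPS3 and of 160.2 CPM in cSR, and highest cells of 670, 897, 914, 989 and 628 CPM in the same order. Pooled, it stood at 188 CPM in cPS (185 to 191), 276 CPM in cPS1, 279 CPM in cPS2 and 268 CPM in cPS3, against 210 CPM (206 to 213) in cSR. PARD3 had medians of 73.8, 116.2, 103.7 and 82.1 CPM in the 4 streak series and 116.1 CPM in cSR, with highest cells of 438, 568, 843 and 929 CPM in the streak series and 395 CPM in cSR. Its pooled level was 113.9, 150.9, 160.2 and 125.6 CPM in the streak series, against 131.4 CPM in cSR. Detection of TJP1 lay between 94.2% and 100% of cells and that of PARD3 between 85.2% and 91.9%, with cSR inside both ranges at 96.7% and 90%. The interquartile ranges of both genes overlapped between all 5 series.

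**Figure D2:**
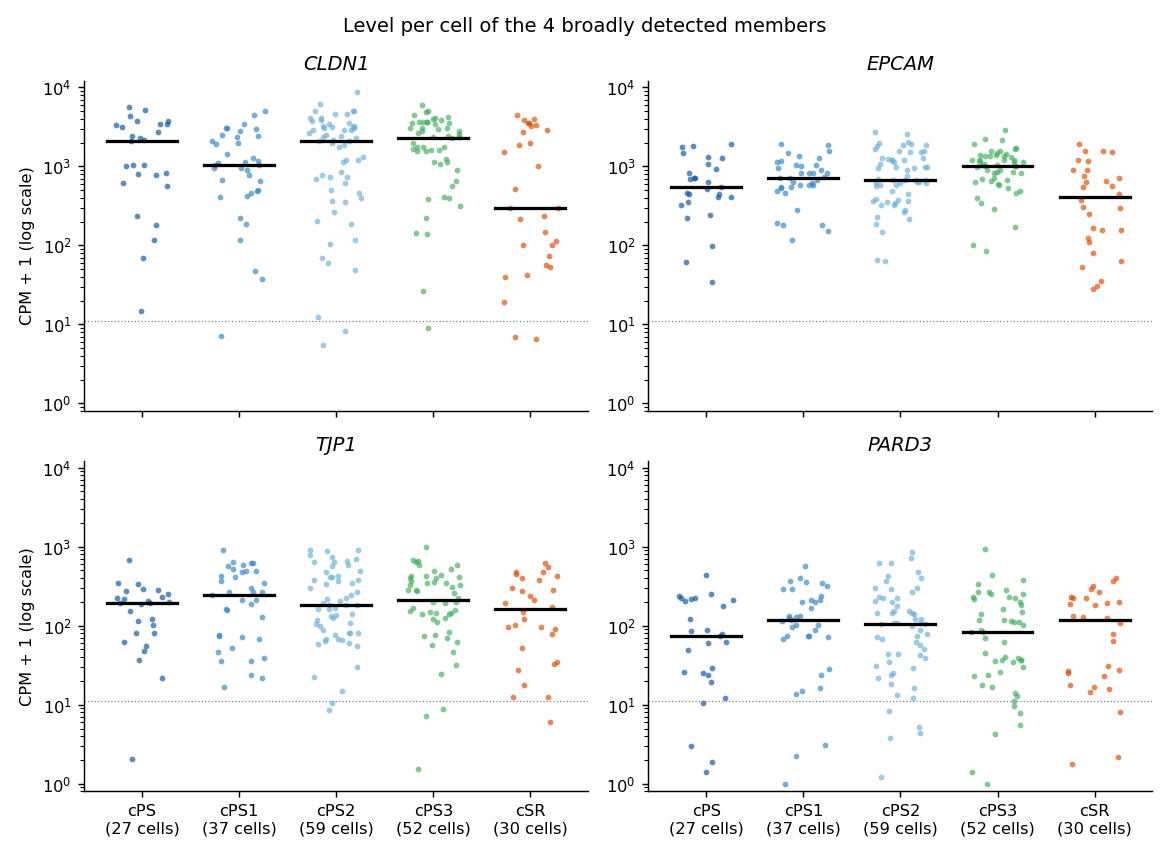
CPM + 1 per cell (log scale) of CLDN1, EPCAM, TJP1 and PARD3 in cPS (27 cells), cPS1 (37), cPS2 (59), cPS3 (52) and cSR (30). Each point is a cell, the black line is the median and the dotted line marks 10 CPM. The cSR cells of CLDN1 lie in a high and a low range, with a median of 294 CPM, while the medians of TJP1 lie between 160.2 and 246 CPM and those of PARD3 between 73.8 and 116.2 CPM.

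The main comparison set cPS against cSR, whose cells share library identifier blocks, to ask which members differ between streak and surrounding region. CLDN1 had a log2 ratio of 0.80 on the log2(CPM + 1) scale, and EPCAM one of 0.47, so both stood higher in cPS. TJP1 had -0.16 and PARD3 -0.20. At a limit of 1.5-fold, 1 of the 4 measured members (at least 5 pooled CPM in either series) was higher, CLDN1, beside 20.9% of the 9698 genes measured, and 0 were lower, beside 23.9%. Such a count is within what the genes at large show.

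The CLDN1 difference was uneven between the library blocks. In block 1, 16 cPS cells stood at 1607 CPM and 13 cSR cells at 1375 CPM, a log2 ratio of 0.22. In block 2, 11 cPS cells stood at 2791 CPM and 17 cSR cells at 1078 CPM, a log2 ratio of 1.37. EPCAM was closer between the blocks, with log2 ratios of 0.39 and 0.59. Within cPS2, CLDN1 stood at 2327 CPM in block 3 and 1733 CPM in block 4, and EPCAM at 1079 CPM and 682 CPM. Between cPS and cSR, PARD3 had 0.10 in block 1 and -0.55 in block 2, so its sign differed between blocks. Without the 6 epiblast-labelled cells in cSR, the log2 ratio was 1.201 for CLDN1 and 0.72 for EPCAM.

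Each of the remaining streak series was compared with these same 30 cSR cells, so the comparisons are not independent of each other. In cPS1, EPCAM had a log2 ratio of 0.60 and CLDN1 of 0.30, and 1 member was at least 1.5-fold higher (25.4% of measured genes) and 0 lower (18.4%). In cPS2 the log2 ratios were 0.75 for CLDN1 and 0.74 for EPCAM, and 2 members were higher (20.6% of genes) and 0 lower (19.2%). In cPS3 they were 0.85 and 0.93, with 2 members higher (19.6% of genes) and 0 lower (19.7%). TJP1 stood at 0.39, 0.41 and 0.35 in these 3 series, opposite in sign to cPS, and PARD3 at 0.20, 0.28 and -0.06.

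The relation to SNAI2 was described with rank correlations, with ranks taken within each title series so that differences between series do not enter. Each tissue counts as 1 sample, so these values describe the cells and carry no p-value. Depth differs between cells. The series cPS and cSR each span blocks 1 and 2, and cPS2 spans blocks 3 and 4, so differences between blocks can still enter. Over all streak cells CLDN1 had a rank correlation of -0.40 with SNAI2, EPCAM -0.26, TJP1 -0.06 and PARD3 0.06. Of 6673 genes detected in at least 25% of streak cells, the central 95% lay between -0.21 and 0.25, and only 2 genes, named after their values were seen, were lower than CLDN1: KIAA2022 (-0.45) and the ubiquitin hydrolase UCHL1 (-0.43). EPCAM had 70 genes below it. A negative sign by itself is common: 3 of the 4 members were negative, beside 44.1% of all measured genes.

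CLDN1 was negative against SNAI2 in each streak series, at -0.61 in cPS, -0.15 in cPS1, -0.40 in cPS2 and -0.48 in cPS3. EPCAM had -0.31, -0.33, -0.19 and -0.28. In the 30 cSR cells, CLDN1 had -0.49 and EPCAM -0.28, with TJP1 at 0.03 and PARD3 at 0.23. There 2 of 4 members were negative, beside 52.9% of 6743 genes, and the central 95% of genes was wider, from -0.45 to 0.43. TJP1 and PARD3 stayed inside the central range in both tissues. In cSR EPCAM was inside it too, with 776 of 6743 genes below it, and CLDN1 was just outside, with 97 genes below. With the total count per cell, CLDN1 had rank correlations of -0.12 in the streak and -0.35 in cSR, and SNAI2 0.02 and -0.03.

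The inverse relation did not take the form of exclusion. CLDN1 and SNAI2 were both at 10 CPM or more in 23 of 27 cPS cells (85.2%), 32 of 37 cPS1 cells (86.5%), 51 of 59 cPS2 cells (86.4%) and 41 of 52 cPS3 cells (78.8%), and in 20 of 30 cSR cells (66.7%). T was detected as well in all of these cells but 1 of cPS2 and 1 of cPS3. Where SNAI2 was under 10 CPM, CLDN1 was mostly high: in 24 such streak cells its lowest, median and highest values were 186, 3265 and 4949 CPM, and in 8 such cSR cells 40.7, 3063 and 3825 CPM. Cells rich in SNAI2 held low to moderately high CLDN1 but not its highest levels. At 500 CPM or more of SNAI2, a limit chosen after the values were seen, CLDN1 had a lowest, median and highest value of 7.13, 1058 and 3874 CPM in 78 streak cells, and of 5.62, 253 and 1987 CPM in 14 cSR cells. The 22 cells at 4000 CPM or more of CLDN1, a limit also chosen after the values were seen, had at most 336 CPM of SNAI2. Below that limit, a cPS3 cell with 3874 CPM of CLDN1 had 777 CPM of SNAI2, and another with 3511 CPM had 1228 CPM. The streak cell with the most SNAI2, a cPS1 cell at 2190 CPM, had 2077 CPM of CLDN1 and 1889 CPM of EPCAM. A cPS cell with 1573 CPM of SNAI2 had 13.6 CPM of CLDN1 and 61.03 CPM of EPCAM. These 2 cells differ widely in CLDN1 at high SNAI2.

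**Figure D3:**
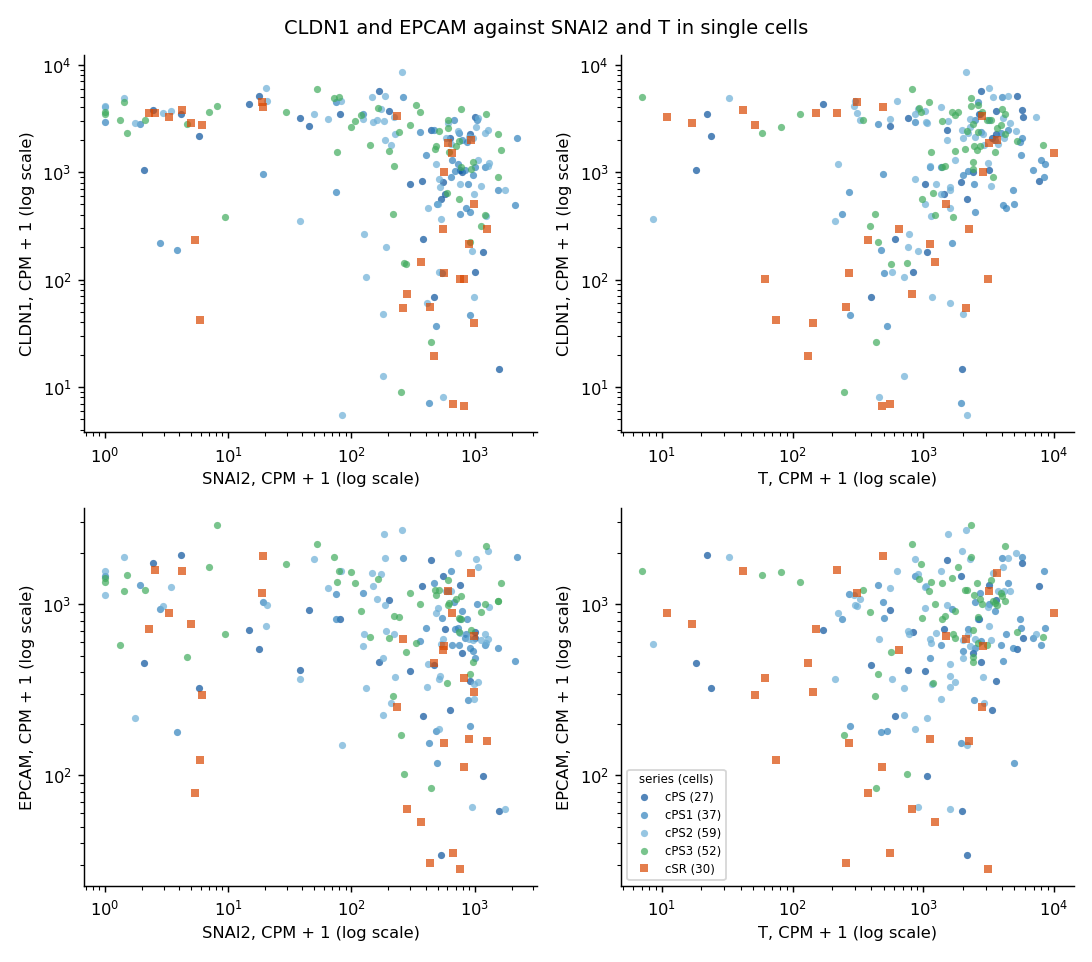
CLDN1 (top) and EPCAM (bottom) against SNAI2 (left) and T (right), all as CPM + 1 on log scales, with 1 point per cell and the series as colours (cSR as squares). Cells with little SNAI2 lie mostly at high CLDN1, with a median of 3265 CPM in the 24 streak cells under 10 CPM of SNAI2, and cells at 500 CPM or more of SNAI2 lie between 5.62 and 3874 CPM of CLDN1, below its highest levels.

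With T, CLDN1 had the opposite sign in streak cells. Over the streak cells its rank correlation with T was 0.22, above 6472 of the 6673 measured genes but still inside their central 95% (-0.16 to 0.23), and it was positive in cPS (0.27), cPS1 (0.34), cPS2 (0.16) and cPS3 (0.19). EPCAM had 0.08, TJP1 0.004 and PARD3 -0.01, also inside it. Only PARD3 was negative, 1 of 4 members beside 36.7% of genes. In cSR, CLDN1 had -0.04, TJP1 -0.02, EPCAM -0.08 and PARD3 0.11, so 3 of 4 members were negative, beside 48.9% of genes, and all 4 values were small.

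SNAI2 and T were themselves positively related, at 0.37 in the streak and 0.54 in cSR. CLDN1 ran against SNAI2 in both tissues but with T in the streak only, having -0.04 with T in cSR. With the ranks of T taken out, the rank correlation of CLDN1 with SNAI2 was -0.54 in the streak, and with the ranks of SNAI2 taken out, that of CLDN1 with T was 0.44. In cSR the same values were -0.55 and 0.30. These partial values were added after the data were seen, and their spread over all genes is not given. The highest T of all cells was in a cSR cell at 10006 CPM, which had 1521 CPM of CLDN1 and 652 CPM of SNAI2.

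**Figure D4:**
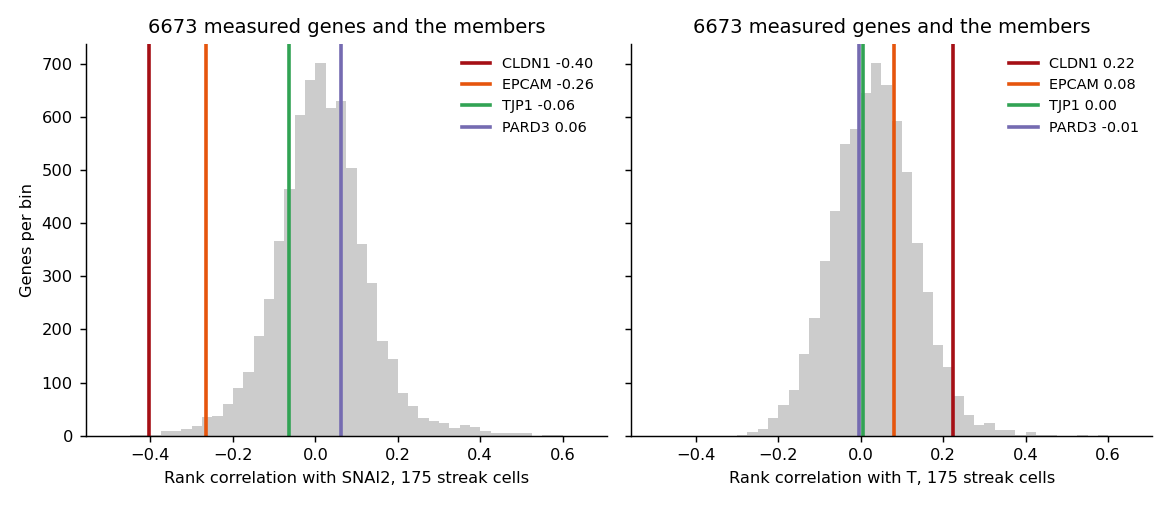
Number of genes (vertical axis) by rank correlation with SNAI2 (left) and T (right) over all streak cells, for 6673 measured genes, with CLDN1, EPCAM, TJP1 and PARD3 as vertical lines. CLDN1 lies at the low end for SNAI2 (-0.40) and towards the high end for T (0.22), EPCAM lies low for SNAI2 (-0.26), and TJP1 and PARD3 lie in the bulk of genes in both panels.

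Among the members, CLDN1 and EPCAM varied together most closely. Their rank correlation over streak cells was 0.65, above 99.96% of genes measured against CLDN1, with 0.45 in cPS, 0.61 in cPS1, 0.73 in cPS2 and 0.68 in cPS3, and it was 0.73 in cSR. CLDN1 with TJP1 had 0.14 in the streak and -0.02 in cSR, and TJP1 with PARD3 had 0.09 and -0.01. By series CLDN1 with TJP1 ran from -0.03 in cPS3 to 0.28 in cPS2, and TJP1 with PARD3 from -0.09 in cPS1 to 0.26 in cPS2. CLDN1 with PARD3 had -0.16 in the streak (-0.31 in cPS3) and -0.35 in cSR, and EPCAM with PARD3 -0.12 and -0.37. Over all streak cells, none of the pairs with TJP1 or PARD3 passed 0.2 in size.

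The genes whose pattern was most like that of CLDN1 over all streak cells were AP1S3, a subunit of the AP-1 clathrin adaptor (0.67), PPAP2A, a lipid phosphate phosphatase (0.66), and EPCAM. In cSR cells AP1S3 had 0.61 and PPAP2A 0.81. For EPCAM the first 3 were CLDN1, AP1S3 (0.52) and PPAP2A (0.51), so the 2 members share their nearest genes. For TJP1 they were WDFY1 (0.32), WBP2 (0.29) and MBIP (0.26), and for PARD3 C4H20ORF194 (0.35), ATP13A3 (0.33) and the engulfment and motility gene ELMO1 (0.33). These are weak. Of 6673 genes, 61 had 0.4 or more with CLDN1 and 40 had -0.4 or less, 18 and 9 had such values with EPCAM, and 0 in either direction with TJP1 or PARD3.

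The genes most opposed to CLDN1, named after their values were seen, were the kinase scaffold AKAP12 (-0.72 in the streak, -0.54 in cSR), the zinc finger gene ZCCHC24 (-0.68 and -0.52) and the mesendoderm factor GATA6 (-0.63 and -0.65). SNAI2 had -0.40 and -0.49 with CLDN1, and its weaker value in the streak follows from how these 3 genes were picked. For EPCAM the most opposed genes were ZCCHC24 (-0.51), AKAP12 (-0.46) and SASH1 (-0.43).

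The other junction and epithelial genes were counted in 6 lists, first by size of difference between cPS and cSR at a limit of 2-fold, which 11.7% of measured genes passed as higher and 14% as lower. The median log2 ratio of all measured genes was -0.04. Of the claudins and CLDND1, 4 of 19 were measured and 0 passed in either direction, with a median of 0.81. That median rests on CLDN1 (0.80), CLDN11 (0.83), CLDND1 (0.83) and CLDN12 (-0.50). CLDN1 had 0.22 and CLDND1 -0.33 in block 1 alone. CLDN11 was low (10.2 against 5.30 CPM) and had -0.94 in cPS2. Of the tight junction membrane and scaffold genes, 18 of 20 in the tables were measured, 1 was higher and 3 were lower, with a median of -0.30. The higher one was the tetraspan protein MARVELD3 (10.05 against 1.10 CPM, log2 ratio 2.39, and 0.06 in cPS3). The lower ones were the scaffold AMOTL1 (1.93 against 14.3 CPM, -2.38), the immunoglobulin-like protein IGSF5 (1.86 against 10.4 CPM, -1.99) and the scaffold MAGI2 (3.55 against 11.1 CPM, -1.41). All 4 were at low levels. In cSR, 92.8% of the AMOTL1 counts came from 1 cell, and block 1 alone gave AMOTL1 a log2 ratio of 0.33. Of the IGSF5 counts, 1 cell gave 79.7% in cPS and 1 cell 63.05% in cSR, and IGSF5 had 0.47 in cPS3. Without the highest cell of each series, an alternative added after the data were seen, AMOTL1 had -0.23, IGSF5 -1.85 and MAGI2 -0.87.

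Of the polarity genes, 15 of 19 were measured, 1 was higher and 3 were lower, with a median of -0.25. The kinase PRKCZ, a partner of PARD3 in the apical complex, was higher in cPS at 23.9 CPM against 0.857 CPM (log2 ratio 3.74), and the remaining series stood at 2.95 (cPS1), 1.93 (cPS2) and 2.61 (cPS3). LIN7A (2.14 against 19.2 CPM, -2.69), the apical protein CRB1 (-2.13) and the basolateral scaffold SCRIB (-1.88) were lower. LIN7A had -0.54, -1.20 and -0.55 in cPS1, cPS2 and cPS3. Of the CRB1 counts in cSR, 98.4% came from 1 cell, and block 1 alone gave CRB1 a log2 ratio of 0.95. Without the highest cell of each series CRB1 had -0.12 and SCRIB -0.96, both short of 2-fold. Of the adherens junction genes, 11 of 12 were measured, 0 were higher and 2 lower, the actin linker VCL (3.63 against 21.4 CPM, -2.28) and the nectin PVRL3 (-1.42), with a median of 0.09. VCL was not lower in every streak series, with log2 ratios of 0.28 in cPS1 and 0.65 in cPS2. PVRL3 was negative in each, at -0.74 in cPS1, but close to no difference in cPS2 (-0.09) and cPS3 (-0.04).

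Of the epithelial regulators and keratins, 12 of 21 were measured, with a median of -0.20. The membrane serine protease ST14 was higher in cPS, at 170 CPM against 43.4 CPM (log2 ratio 1.95), with 2.14 and 2.05 in blocks 1 and 2 and 1.63, 1.36 and 1.45 in the other streak series. The grainyhead factors GRHL3 (1.797 against 27.8 CPM, -3.36) and GRHL1 (2.86 against 15.8 CPM, -2.12) were lower. A single cell held 57.1% of the GRHL3 counts in cSR, and without the highest cell of each series GRHL3 had -2.86. GRHL1 had -0.33, -0.58 and -0.50 in cPS1, cPS2 and cPS3. Of the genes of the epithelial-mesenchymal transition, 9 of 13 were measured, 1 was higher and 3 lower, with a median of 0.03. The higher one was the intermediate filament gene VIM (1.56), with 0.61 in cPS1, short of 2-fold, 1.05 in cPS2 and 1.21 in cPS3. The lower ones were the repressors TWIST1 (0.823 against 13.4 CPM, -2.98), ZEB2 (-1.11) and SNAI1 (-1.08). Of the TWIST1 counts, 1 cell gave 98.3% in cPS and 1 cell 49.7% in cSR. Without the highest cell of each series TWIST1 had -2.99. ZEB2 had -0.56 in block 1 alone and -0.24, -0.35 and -0.65 in cPS1, cPS2 and cPS3, all short of 2-fold. SNAI1 had 0.15 in block 1 alone, 0.13 in cPS2 and 0.36 in cPS3, and -0.90 without the highest cell of each series. SNAI2 itself had 0.03.

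The same lists were read for their rank correlation with CLDN1 over streak cells, where 2.53% of 6673 genes had 0.3 or more and 1.68% had -0.3 or less. Among 11 measured tight junction genes, 0 reached 0.3 and 1 was at -0.3 or less, the junctional adhesion molecule JAM3 (-0.53, and -0.58 in cSR). JAM3 was detected in all cells of both tissues and had 0.51 with SNAI2, opposite in sign to CLDN1. Among 11 polarity genes 0 passed either limit. Among 11 adherens junction genes, the junction linker PLEKHA7 (0.37) and the cadherin CDH3 (0.35) ran with CLDN1 and the mesenchymal cadherin CDH2 against it (-0.50, and -0.57 in cSR).

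Among 8 measured epithelial regulators and keratins, a list that holds EPCAM itself, 3 reached 0.3, EPCAM, ST14 (0.38, and 0.55 in cSR) and the splicing factor ESRP2 (0.30), and 0 were at -0.3 or less. The list's median was 0.21, beside 0.01 for all genes. Among 7 genes of the epithelial-mesenchymal transition, 2 ran with CLDN1, the small GTPase RHOB (0.39) and VIM (0.36), and 2 against it, SNAI2 and ZEB2 (-0.33, and -0.65 in cSR). VIM, often used as a mesenchymal marker, had -0.32 with SNAI2 in these cells.

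**Figure D5:**
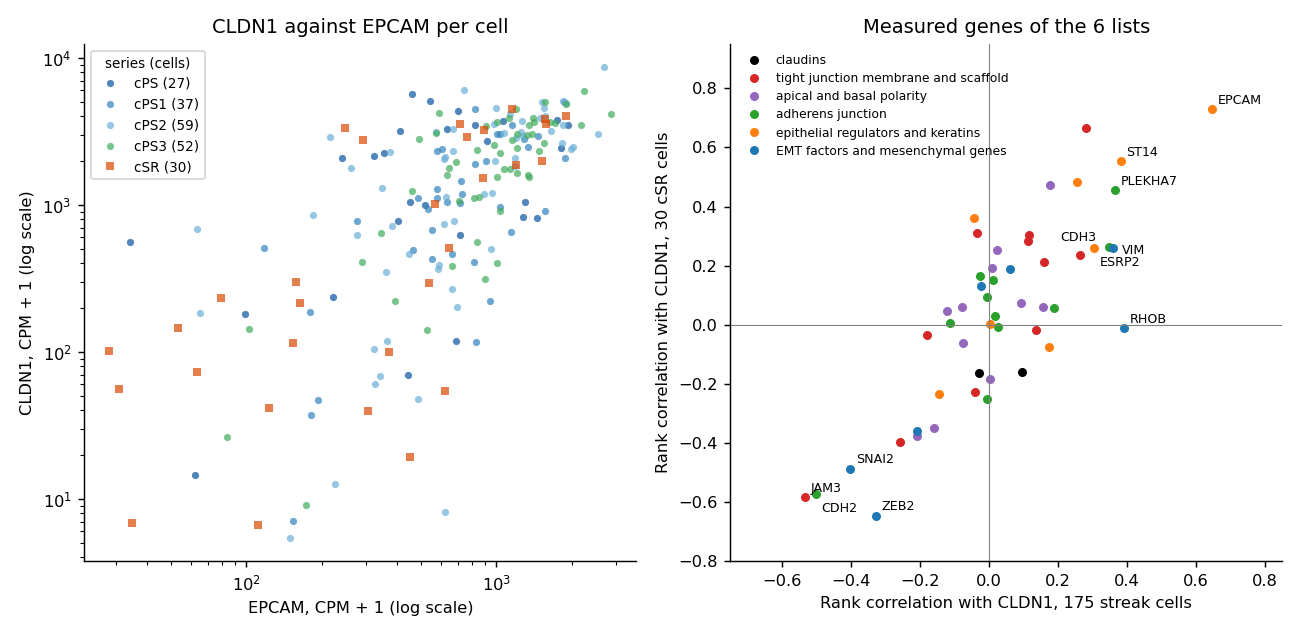
Left, CLDN1 against EPCAM per cell (CPM + 1, log scales), coloured by series, with cSR as squares. Right, the rank correlation with CLDN1 of each measured gene of the 6 lists, over all streak cells (horizontal) and 30 cSR cells (vertical), with genes beyond 0.3 in streak cells named. EPCAM is at 0.65 and 0.73, JAM3 at -0.53 and -0.58, and CDH2 at -0.50 and -0.57.

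Of 8 classes of cell type markers, some moved with CLDN1 and EPCAM and some did not. The summed CPM of 8 lateral mesoderm and vessel markers had a rank correlation of -0.54 with CLDN1 in the streak and -0.79 in cSR, and of -0.46 and -0.75 with EPCAM. The sum of 10 endoderm and hypoblast markers had -0.57 and -0.73 with CLDN1, and -0.35 and -0.66 with EPCAM. Raw CPM were summed, so markers with high counts weigh most, and this list includes GATA6, which alone had -0.63 and -0.65 with CLDN1. The sum of 7 epiblast markers had 0.36 and 0.46 with CLDN1, and 0.32 and 0.14 with EPCAM. SALL4 can dominate the epiblast sum: the cSR cell highest in CLDN10 had 878 CPM of SALL4, with SOX2, SOX3, OTX2 and CDH1 at 0. The part of single markers in these sums was not tested. The other classes had smaller values in streak cells: non-neural ectoderm -0.05 with CLDN1 and -0.01 with EPCAM, blood -0.01 and -0.09, germ cell 0.08 and -0.02, streak 0.19 and 0.07, and node 0.20 and 0.13. In cSR these 5 classes had -0.18, -0.28, 0.42, -0.06 and 0.23 with CLDN1. The blood and germ cell sums, of 2 markers each, had a median of 0 CPM in cSR, so their values there rest on many tied cells. With PARD3 the endoderm sum had 0.23 in the streak and 0.58 in cSR. With TJP1, the lateral mesoderm sum had -0.12 in the streak and 0.04 in cSR, and the endoderm sum -0.07 and -0.10.

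These sums also differed between the series. The lateral mesoderm sum had medians of 51.9, 148.1, 37.2 and 37.7 CPM in cPS, cPS1, cPS2 and cPS3, with ranges from 0 to 2893 CPM over the streak, against 353 CPM in cSR (2.41 to 2659 CPM). Its receptor KDR had -0.46 with CLDN1 in the streak and -0.77 in cSR, and of the defining markers TAL1 was at 0 in cPS3. The endoderm sum had medians of 97.6, 153.1, 114.7 and 37.7 CPM in the streak series and 161.03 CPM in cSR. FOXA1 was at 0 in all 5 series and SOX17 at 0 in cSR. The epiblast sum had medians of 663, 1095, 970 and 845 CPM, against 583 CPM in cSR. The part of the mix of cells in the CLDN1 and EPCAM differences was not tested.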

How the data were processed

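The tools named in the submitters' processing notes are RSEM 1.2.3, CASAVA 1.8.2 and Bowtie, in version 0.12.9 or, for 1 cell, 0.12.8, and the build is galGal4. In addition, per the labels' protocols the libraries were made with a Nextera XT kit. Both deposited tables give the authors' expected counts, with 64.2% (streak table) and 65.5% (surrounding-region table) of the values above 0 whole and no scaling. The streak table breaks off within its last line, and that line was left out. A further 640 genes of the surrounding-region table (3.42% of its counts) were not used here. No cell was removed and no doublet caller was run. No pair of cells had a correlation of log2 CPM above 0.857.

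Pooled CPM used summed counts over summed totals, log2 ratios a pseudocount of 1 CPM, which understates the ratios of low genes, and 3 counts were taken as the floor. The members and lists were chosen with earlier results of these data known. Genes were named by a rule: the members, SNAI2, T, list genes at least 2-fold apart (up to 5 a list), the 3 genes most like each member, and markers. Genes of the lists named for their rank correlation with CLDN1 passed 0.3 in size, a limit set after the data were seen. Rank correlations and ratios were tested on simulated data. TMM factors of edgeR 4.0.16, which moved the median log2 ratio of cPS against cSR by 0.15, and size factors of DESeq2 1.42.0 (R 4.3.3, counts rounded to whole numbers), which moved it by 0.08, were alternatives, as was thinning to 1000000 counts, which left out 5 cells. Values were computed in Python 3.11.15 with pandas 2.3.3, scipy 1.17.1 and numpy 2.4.6, and drawn with matplotlib 3.10.9.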

Additional observations from a re-analysis of the deposited data

How the results depend on the processing

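No difference between tissues has a replicate check, since each tissue is 1 sample. No paired analysis was possible because the numbers in the titles only name cells, and no result comes from a test. The CLDN1 difference between cPS and cSR depended on the identifier block, the limit and the weight of each cell. Counts of members are given with the share of all measured genes that passed under the same setting. At a fold limit of 2, 0 members were higher in cPS (11.7% of genes), cPS1 (14.1%), cPS2 (10.7%) or cPS3 (10%). With TMM factors 2 members were higher in cPS (25.8%) and 0 in cPS1 (23%). Without the epiblast-labelled cSR cells 2 were higher in cPS (22.4%) and 2 in cPS1 (27.3%), with all streak cells in place of cPS 2 (18.6%), in identifier block 1 alone 0 (24.9%) and in block 2 alone 2 (26.2%). With every cell thinned to 1000000 counts 0 were higher in cPS (20.1%), 0 in cPS1 (26.4%) and 1 in cPS2 (19.5%). By the mean of CPM over cells 0 were higher in cPS1 (25.9%), and by the median 3 (26.6%), while 1 member (PARD3) was lower in cPS (39.5%). The rank correlation of CLDN1 with SNAI2 in streak cells stayed negative over 11 alternatives, from -0.61 to -0.15, and that of EPCAM from -0.33 to -0.19. In cSR cells CLDN1 ranged from -0.56 to -0.20, the weakest value being that of cells at 10 CPM or more of SNAI2. Among such cells the rank correlation of PARD3 with SNAI2 in cSR was -0.076, in place of 0.23. CLDN1 with T in streak cells ranged from 0.16 to 0.44. Members negative with T in streak cells numbered 0 among cells at 10 CPM or more of T (36.3% of genes), 2 by Pearson correlation of log2 CPM (36.3%), 2 with total and genes detected taken out (47%), 0 with ranks over all cells together (34.5%), and 0, 0, 2 and 3 in cPS (48.7%), cPS1 (36.9%), cPS2 (45%) and cPS3 (40.7%) alone. In cSR they numbered 1 among cells at 10 CPM or more of T (48.7%) and 1 without the epiblast-labelled cells (49.5%). The causes of these changes were not tested. The alternatives that take out T or SNAI2, or the highest cells for list genes, were added after the data were seen. CLDN3, CLDN5 and OCLN were at or near the limit of detection, so their shares rest on at most 1 cell a tissue.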
